A study of Rattus norvegicus with 32 samples.

Results

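The genes described are Fasn, Scd, Srebf1 and Acly, which encode 3 enzymes of fatty acid synthesis and the transcription factor best known for controlling them. They were chosen by name and Ensembl identifier, and each identifier was kept because the files place it on the chromosome given in advance for it. All 4 were kept, of 26404 genes listed, and all 4 passed the filter on low counts that left 14776 genes for testing. They were measured by RNA sequencing of renal cortex in 4 groups of rats aged 37 weeks by the labels. Sprague Dawley (SD) rats were the healthy controls (n = 6). The other three groups were of the Zucker Diabetic Sprague Dawley strain (ZDSD), which becomes obese and diabetic. They had a sham laparotomy (SHAM, n = 7 used), Roux-en-Y gastric bypass (RYGB, n = 9), or RYGB followed by fenofibrate, metformin, ramipril and rosuvastatin mixed into the chow (RYGB-FMRR, n = 7). By the study's methods the rats were male, and the ZDSD rats of all 3 groups were given insulin degludec in the week before surgery. SHAM rats were operated on at a younger age than RYGB and RYGB-FMRR rats. Bypass surgery was staggered, with RYGB-FMRR rats operated on at a slightly younger age than RYGB rats. The drugs and this timing cannot be told apart in RYGB-FMRR compared with RYGB. Likewise, the intervention cannot be told apart from the age at surgery in RYGB or RYGB-FMRR compared with SHAM. SD rats differed from SHAM rats in strain, diabetes and surgery together, so these cannot be told apart in that comparison. The drugs were given only together and only after RYGB, so an effect of any single drug cannot be told apart from that of the others.

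Total counts were between 14502127 and 27597901 in the 29 libraries used. Another 2 SHAM libraries, with 121511 and 101534 counts, fell under the minimum of 1000000 and were left out, and 1 RYGB-FMRR rat that the labels list was not analysed here. Values are given as CPM, the count scaled to a library of 1000000 counts after TMM normalization, or per kilobase of exon as well (RPKM) where genes are compared with each other. Nothing in the labels says whether libraries shared a preparation or sequencing batch. The cortex is a mixture of cells, and in such samples fewer cells of a type and less RNA per cell cannot be told apart. The files list genes by identifier only, so markers of tubule, adipose or other cells were not analysed here and their part in the results was not tested.

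De novo lipogenesis turns surplus carbohydrate into fat. Acly, ATP citrate lyase, splits cytosolic citrate to supply acetyl-CoA. Fasn, fatty acid synthase, builds that carbon into the saturated fatty acid palmitate, and Scd, stearoyl-CoA desaturase, puts a double bond into saturated fatty acids, a step needed for triglyceride storage. Srebf1 encodes SREBP-1, a membrane-bound factor that is cut free to enter the nucleus and switch on genes of this pathway, its own included. Insulin is a known activator of Srebf1 in liver, and excess SREBP-1 activity has been linked to lipid accumulation in the diabetic kidney.

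In the rn5 build used for the files, Srebf1 (ENSRNOG00000003463) lay at chr10:46326907-46347948, with 3430 exonic bases in 20 separate intervals. Fasn (ENSRNOG00000045636) lay at chr10:109579049-109597219, with 9143 exonic bases in 43 intervals. Acly (ENSRNOG00000016924) lay at chr10:88185495-88236092, with 4327 exonic bases in 29 intervals. Scd (ENSRNOG00000013552) lay at chr1:271602887-271615702, with 4690 exonic bases in 6 intervals. All 4 were on the minus strand. Another gene overlapped the span of Srebf1 on the opposite strand with 0 exonic bases in common, and no listed gene overlapped the other three. Counting used exons on the matching strand. The option that counts reads with several alignments was not set, so reads that Scd shares with its relative Scd2 in full would have been lost from the Scd count.

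Srebf1 is transcribed from separate promoters that give the SREBP-1a and SREBP-1c forms, and the count per gene adds all of its transcripts together. The 250 bases before each of its start sites in RefSeq (GRCr8 build, minus strand) are shown because this gene moved in the most comparisons between ZDSD groups. Capitals mark the CCAAT box, a binding motif of the factor NF-Y, and the GC box, a binding motif of Sp1. The upstream start covers chr10:45529165-45529414 and the downstream start covers chr10:45519011-45519260.
Srebf1 upstream start: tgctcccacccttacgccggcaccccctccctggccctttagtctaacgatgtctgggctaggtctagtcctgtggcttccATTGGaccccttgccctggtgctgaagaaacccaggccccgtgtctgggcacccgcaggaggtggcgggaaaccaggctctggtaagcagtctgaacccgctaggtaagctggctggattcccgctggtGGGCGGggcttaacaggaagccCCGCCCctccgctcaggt
Srebf1 downstream start: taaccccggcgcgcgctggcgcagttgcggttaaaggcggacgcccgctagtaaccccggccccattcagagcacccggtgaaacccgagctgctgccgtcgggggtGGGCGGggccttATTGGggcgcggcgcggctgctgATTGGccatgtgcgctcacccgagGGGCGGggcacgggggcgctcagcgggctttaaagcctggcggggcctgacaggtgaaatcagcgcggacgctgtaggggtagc

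The letters CCAAT were searched on both strands, so that ATTGG marks the same motif on the other strand. They occurred once in the upstream window, 165 to 169 bases before the start. In the downstream window they occurred 2 times, at 104 to 108 and at 127 to 131 bases before the start. Of 33469 rat promoter windows of this length, 34.0% held CCAAT. The letters GGGCGG occurred 2 times in each Srebf1 window, against at least 1 match in 30.5% of all windows. The letters TCACNCCAC, a form of the sterol regulatory element, and CACGTG, an E-box, were found in neither Srebf1 window. They were found in 0.974% and 5.59% of all windows. Only these exact letters were searched, with N as any base, and variant forms of either element were not. The motifs do not overlap one another in the windows shown. These matches describe letters only, and no binding was measured.

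Per kilobase of exon, Srebf1 and Acly were the most abundant of the 4 genes, Fasn was lower and Scd was the least abundant in all 29 rats. The median level of Srebf1 went from 46.4 RPKM in SD to 31.0 in SHAM, and stood at 42.9 after RYGB and 70.8 after RYGB-FMRR. For Acly the SD median was 41.9 RPKM, and the ZDSD medians were 36.1 for SHAM, 35.1 for RYGB and 38.8 for RYGB-FMRR. Fasn ranged in median from 13.4 RPKM in SHAM to 23.1 in RYGB-FMRR. Scd went from 0.325 RPKM in SD and 0.362 in SHAM to 1.03 in RYGB and 5.28 in RYGB-FMRR. The order of the leading pair also differed between groups. Srebf1 exceeded Acly in 1 of 7 SHAM rats, 4 of 6 SD rats, 9 of 9 RYGB rats and 7 of 7 RYGB-FMRR rats, as a level per length. The ratio of Fasn to Scd, also per length, had a median of 39.2 in SHAM and 4.90 in RYGB-FMRR, as Scd differed between these groups by a larger factor than Fasn.

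**Figure D1:**
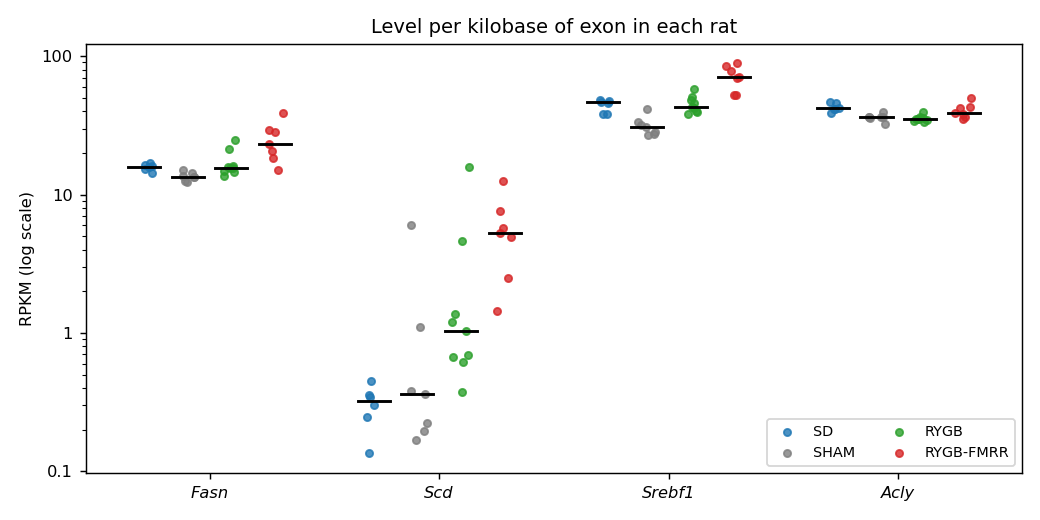
Level of each gene in RPKM (log axis) in the 29 rats used, coloured by group, with a black line at each group median. Srebf1 and Acly lie at 26.8 RPKM or above, Fasn below them in each rat, and Scd lowest, with its RYGB-FMRR rats between 1.45 and 12.4 RPKM.

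Srebf1 was lower in SHAM than in SD and was higher than in SHAM after both interventions, with the higher level after RYGB-FMRR. SD rats ranged from 131 to 165 CPM around a median of 159. SHAM rats ranged from 91.9 to 143 CPM with a median of 106, and 6 of 7 lay below the lowest SD rat. Rat 311, at 143 CPM, was the SHAM rat that overlapped with SD. The level in SHAM was 1.40-fold lower than in SD (log2 fold change -0.48, standard error 0.12, adjusted p = 0.00267 by edgeR's quasi-likelihood test). A gene was called where this adjusted p-value was under 0.05 and the fold change at least 1.3, the thresholds used in the study. By that rule Srebf1 was the 1 gene of 4 called in SHAM compared with SD, where 18.6% of all genes tested were called and 8% were called lower.

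After RYGB, Srebf1 ranged from 130 to 198 CPM with a median of 147, and all 9 rats lay above the SHAM median. The rise over SHAM was 1.43-fold (log2 fold change 0.51, standard error 0.11, adjusted p = 0.00284 by edgeR). This was again the 1 gene of 4 called, against 5.35% of all genes tested and 1.48% called higher. RYGB was not distinguished from SD, at 1.02-fold with a 95% interval from 0.868 to 1.20 (adjusted p = 0.856 by edgeR). The interval therefore leaves room for differences from SD of up to about this size in either direction.

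After RYGB-FMRR, Srebf1 ranged from 179 to 304 CPM with a median of 243. All 7 rats lay above every SHAM rat and every SD rat, and 5 of 7 lay above the highest RYGB rat. Groups separated in this way, with the treated rats higher, in 3.44% of all genes for RYGB-FMRR compared with SHAM and in 5.45% for RYGB-FMRR compared with SD. The rise over SHAM was 2.25-fold (log2 fold change 1.17, standard error 0.12, adjusted p = 2.39e-08 by edgeR), number 48 of 14776 genes by p-value. Compared with RYGB alone the rise was 1.58-fold (log2 fold change 0.66, standard error 0.11, adjusted p = 0.000116 by edgeR). Compared with SD it was 1.61-fold (log2 fold change 0.69, standard error 0.12, adjusted p = 7.72e-05 by edgeR). In order of median the groups were SHAM, RYGB, SD and RYGB-FMRR, and RYGB and SD were the neighbours that did not differ beyond the spread between rats.

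**Figure D2:**
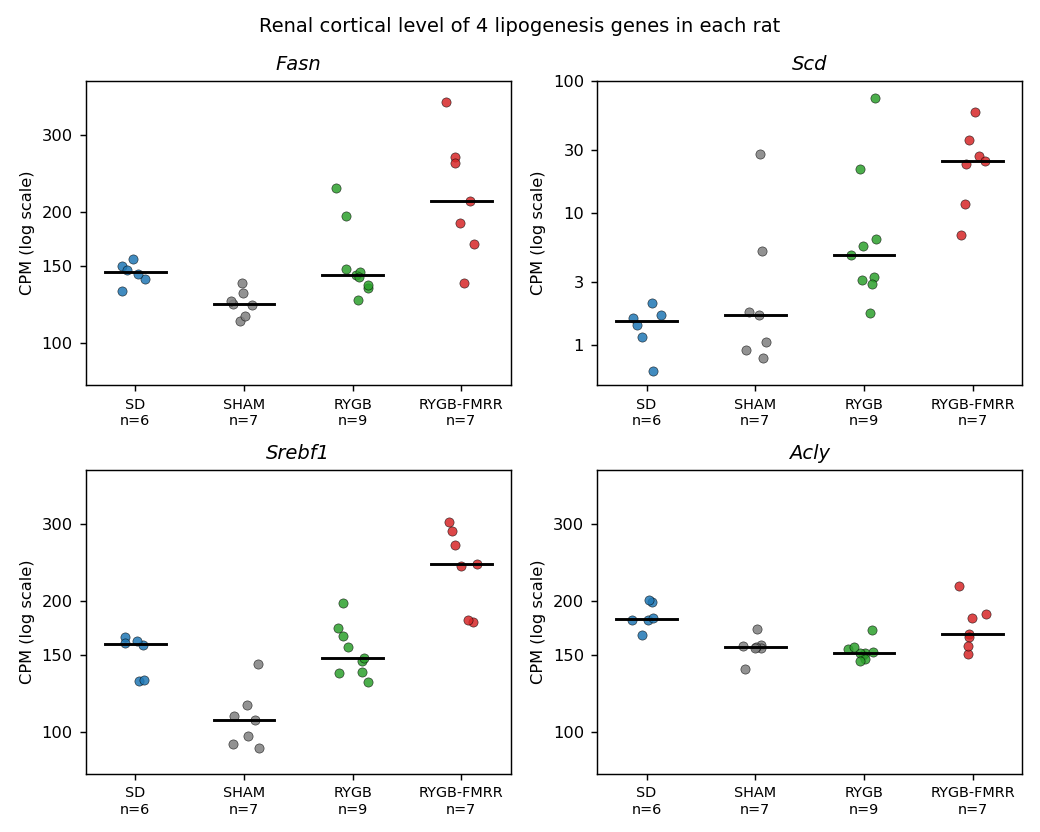
CPM of each gene in each rat (log axes, with a separate range for Scd), by group, with a black line at the median and n under each group. Srebf1 in RYGB-FMRR (179 to 304 CPM) lies above all SHAM rats, Scd spreads from 0.633 to 73.9 CPM, and Acly stays between 139 and 216 CPM.

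Fasn was called in each comparison of RYGB-FMRR and in none of the other comparisons. SD rats ranged from 131 to 156 CPM with a median of 145, and SHAM rats from 112 to 138 CPM with a median of 123. Of the SHAM rats, 6 of 7 lay below the lowest SD rat, yet the difference was 1.17-fold and was not called (log2 fold change -0.23, standard error 0.15, adjusted p = 0.245 by edgeR). An exact permutation test of the log2 CPM of these groups alone, two-sided, gave an unadjusted p = 0.00233. This test was chosen after seeing the data, and its p-values are unadjusted throughout. The quasi-likelihood test shares 1 estimate of the spread among the 4 groups. The SD of log2 CPM was 0.08 in SD and 0.10 in SHAM but 0.28 in RYGB and 0.46 in RYGB-FMRR.

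After RYGB, Fasn ranged from 125 to 227 CPM with a median of 143. Rats 346 and 344 stood at 227 and 196 CPM, and the other 7 rats were between 125 and 148 CPM. All 9 rats lay above the SHAM median. The value was 1.25-fold that of SHAM and was not called (log2 fold change 0.33, standard error 0.14, adjusted p = 0.116 by edgeR). The exact permutation p, unadjusted and two-sided, was 0.0021. Compared with SD it was 1.07-fold, with a 95% interval from 0.873 to 1.31 (adjusted p = 0.610 by edgeR).

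After RYGB-FMRR, Fasn ranged from 137 to 358 CPM with a median of 212. Rat 339 was highest, and rat 324, the lowest, was the rat that overlapped with SHAM. The rise over SHAM was 1.84-fold (log2 fold change 0.88, standard error 0.15, adjusted p = 6.69e-05 by edgeR). Compared with RYGB the rise was 1.47-fold (log2 fold change 0.55, standard error 0.14, adjusted p = 0.00785 by edgeR), with 3 of 7 rats above the highest RYGB rat and 6 of 7 above the RYGB median. Compared with SD the rise was 1.57-fold (log2 fold change 0.65, standard error 0.15, adjusted p = 0.00173 by edgeR). In order of median the groups were SHAM, RYGB, SD and RYGB-FMRR, and no pair among SHAM, RYGB and SD was called.

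Scd was barely detected in SD and in most SHAM rats and reached its highest median after RYGB-FMRR, with a spread from rat to rat that the other genes did not show. SD rats ranged from 0.633 to 2.10 CPM, which was 15 to 53 counts in a library, with a median of 1.52 CPM. SHAM rats ranged from 0.794 to 28.1 CPM with a median of 1.70. Of these, 5 rats were at or below 1.79 CPM, rat 321 was at 5.20 CPM and rat 340 was at 28.1 CPM. The fitted value in SHAM was 3.84-fold that in SD and was not called, with a 95% interval from 0.999 to 14.7 (log2 fold change 1.94, standard error 0.95, adjusted p = 0.110 by edgeR). DESeq2's Wald test called it (adjusted p = 0.0485), and called 18.1% of the genes for which it gave an adjusted p-value. Without rat 340 the log2 fold change by edgeR was 0.41. With all rats, the mean log2 CPM differed by 0.76 (unadjusted exact permutation p = 0.397, two-sided).

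After RYGB, Scd ranged from 1.77 to 73.9 CPM with a median of 4.85. Rat 344 was at 73.9 CPM and rat 346 at 21.7 CPM, and the other 7 rats were at or below 6.42 CPM. All 9 rats lay above the SHAM median, but only rat 344 lay above the highest SHAM rat. The value was 2.46-fold that in SHAM and was not called, with a 95% interval from 0.839 to 7.18 (adjusted p = 0.268 by edgeR). This value rested on single rats. Without SHAM rat 340 it was called (log2 fold change 2.82, adjusted p = 0.0105 by edgeR), and without RYGB rat 344 the log2 fold change was 0.16. The mean log2 CPM of all rats differed by 1.39 (unadjusted exact permutation p = 0.128, two-sided). Compared with SD, Scd rose 9.42-fold (log2 fold change 3.24, standard error 0.92, adjusted p = 0.00639 by edgeR), with 8 of 9 rats above the highest SD rat. It was the 1 gene of 4 called in RYGB compared with SD, where 19.5% of all genes were called and 10.1% were called higher. Without rat 344 that log2 fold change was 2.10 and remained called (adjusted p = 0.0306 by edgeR).

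After RYGB-FMRR, Scd ranged from 6.82 to 58.4 CPM with a median of 24.7. All 7 rats lay above every SD rat, and above 6 of the 7 SHAM rats, while 2 lay above SHAM rat 340. In 5.45% of all genes the RYGB-FMRR rats all lay above every SD rat. The fitted rise over SHAM was 4.84-fold (log2 fold change 2.27, standard error 0.79, adjusted p = 0.0390 by edgeR). The call was close to the threshold. Leaving out any of 10 single rats ended it, with adjusted p-values by edgeR of up to 0.0874. Without SHAM rat 340 the log2 fold change was 3.80 (adjusted p = 0.000778 by edgeR). On the log2 CPM scale, where 1 high rat weighs less, the means differed by 3.18 (exact permutation p = 0.00408, two-sided).

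Compared with RYGB, all 7 RYGB-FMRR rats lay above the RYGB median of Scd and none above RYGB rat 344. The value was 1.97-fold and was not called, with a 95% interval from 0.735 to 5.28 (adjusted p = 0.389 by edgeR). Without rat 344 it was called, at a log2 fold change of 2.11 (adjusted p = 0.0301 by edgeR). With all rats, the mean log2 CPM differed by 1.80 (exact permutation p = 0.0278, two-sided). Compared with SD, Scd rose 18.6-fold with a 95% interval from 4.78 to 72.1 (log2 fold change 4.21, standard error 0.96, adjusted p = 0.00127 by edgeR), and no single rat left out changed that call. The pooled standard deviation of Scd within groups was 1.40 on the log2 CPM scale, at percentile 99.4 of the genes tested, where the median gene had 0.18.

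**Figure D3:**
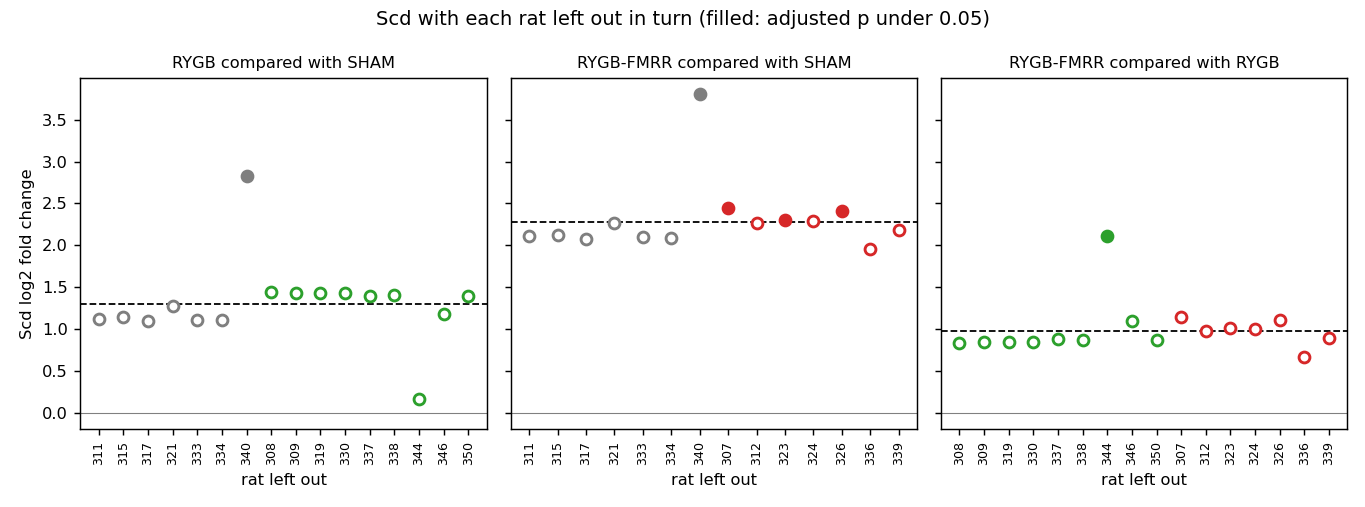
Log2 fold change of Scd (vertical axis) with each rat left out in turn (horizontal axis, rats by number, coloured by group as in the other plots), in 3 comparisons of ZDSD groups. The dashed line is the value with all rats and filled points have an adjusted p-value under 0.05. The points for SHAM rat 340 and RYGB rat 344 lie apart from the others.

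Acly differed by small amounts, with a narrow spread, and was called in none of the 6 comparisons. SD rats ranged from 167 to 200 CPM with a median of 181, and SHAM rats from 139 to 172 CPM with a median of 156. Of the SHAM rats, 6 of 7 lay below the lowest SD rat. The level in SHAM was 1.18-fold lower (log2 fold change -0.24, standard error 0.06, adjusted p = 0.00456 by edgeR), which passed the p-value but not the fold-change threshold. By the adjusted p-value alone, 35.2% of all genes passed in this comparison. RYGB rats ranged from 145 to 171 CPM with a median of 152. They stood at 0.981 times SHAM, with a 95% interval from 0.903 to 1.07 (adjusted p = 0.800 by edgeR). Compared with SD they were 1.20-fold lower (log2 fold change -0.27, standard error 0.06, adjusted p = 0.000874 by edgeR), with 8 of 9 rats below the lowest SD rat, again short of the fold-change threshold, where 40.6% of all genes passed by the adjusted p-value alone.

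RYGB-FMRR rats ranged from 151 to 216 CPM of Acly with a median of 168. The value was 1.14-fold that in RYGB (log2 fold change 0.19, standard error 0.06, adjusted p = 0.0278 by edgeR), with 3 of 7 rats above the highest RYGB rat. It passed by the adjusted p-value alone, as did 11.5% of all genes. That pass did not hold when only these groups were fitted (adjusted p = 0.0506 by edgeR). With each rat left out in turn, the adjusted p by edgeR ranged from 0.0103 to 0.0981. The RYGB-FMRR value was 1.12-fold that in SHAM (adjusted p = 0.0531 by edgeR). This adjusted p was 0.0398 by DESeq2's Wald test and 0.125 by edgeR with only these groups fitted. By edgeR it ranged from 0.0201 to 0.168 with each rat left out in turn. The fold change stayed under 1.3 in these fits. Compared with SD, the RYGB-FMRR value was 0.949 times as high, with a 95% interval from 0.867 to 1.04 (adjusted p = 0.397 by edgeR). The 95% intervals of the 6 Acly comparisons lay between 0.762 and 1.24 times. In order of median the groups were RYGB, SHAM, RYGB-FMRR and SD.

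**Figure D4:**
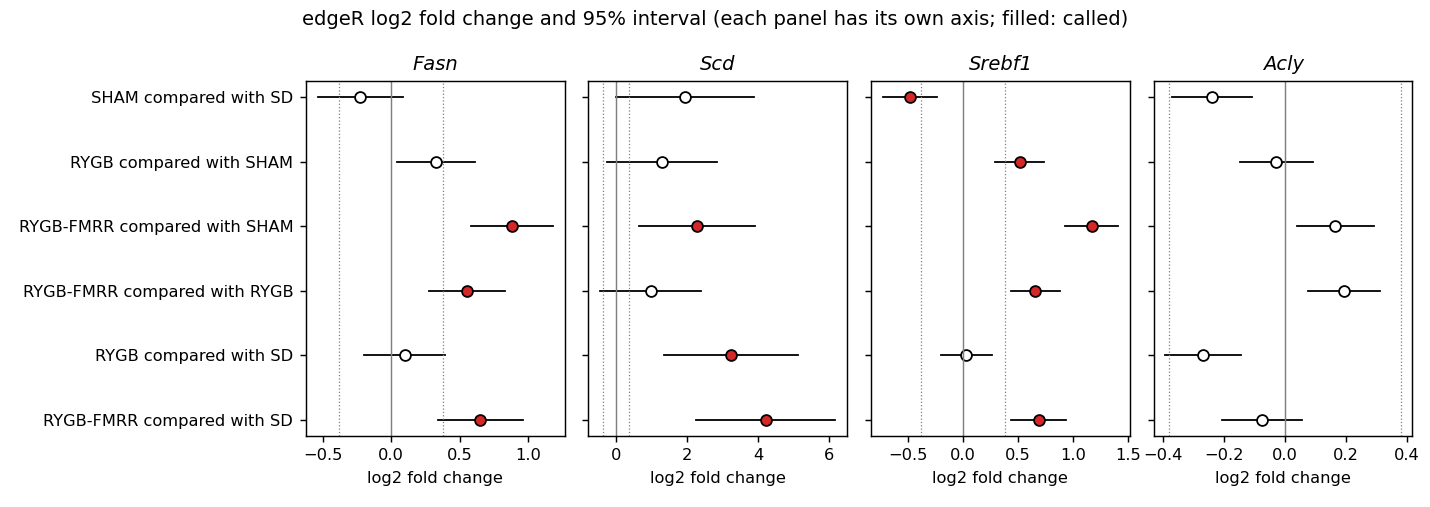
Log2 fold change (points) with 95% intervals (lines) from edgeR for each gene in 6 comparisons, on a separate axis for each gene, with dotted lines at a 1.3-fold change. Filled points were called. Srebf1 was called in 5 comparisons, Fasn and Scd in 3 each, and Acly in none.

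Fasn, Scd and Srebf1 were called higher in RYGB-FMRR compared with SHAM, which is 3 genes of 4, where 12.1% of all genes were called and 4.43% were called higher. The median log2 fold change of the 4 genes was 1.03, against -0.01 over all genes tested. In RYGB-FMRR compared with RYGB, Fasn and Srebf1 were called higher, 2 genes of 4, where 4.56% of all genes were called and 2.74% were called higher. The medians were 0.61 and -0.02. In RYGB-FMRR compared with SD, 3 genes of 4 were called higher, against 16.7% of all genes called and 7.8% called higher. In RYGB compared with SHAM the median log2 fold change was 0.42 for the 4 genes and 0.00 for all. The comparisons share groups, so their counts are not independent of each other, and 4 genes chosen by name are described here without a test of the list.

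Fasn varied with Acly and with Srebf1 from rat to rat within the groups. Correlations were computed on log2 CPM after subtracting the mean of each group, over 29 rats and 6 pairs of genes, with 100000 permutations within groups. The values of 1 rat share a library and its scaling. Fasn and Acly had the closest relation, with Pearson's r of 0.76 (permutation p = 9e-05, adjusted p = 0.00054) and Spearman's rho of 0.69 (permutation p = 0.00027, adjusted p = 0.00162). Among 14775 other genes, Fasn ranked number 1 by r with Acly, and Acly ranked number 3 with Fasn. The relation had the same sign in each group, with r from 0.54 in SHAM to 0.88 in RYGB-FMRR. Rats 339 and 307 were farthest from the median of Fasn over all rats, before group means were subtracted, and without them r was 0.72. They were not chosen by distance from their group mean, so other rats far from it remained. Acly, which passed no call between groups, followed Fasn within them.

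Fasn and Srebf1 had an r of 0.63 (permutation p = 0.00205, adjusted p = 0.00615) and a rho of 0.62 (permutation p = 0.0009, adjusted p = 0.0027), with r from 0.40 in SD to 0.74 in RYGB-FMRR and 0.56 without rats 339 and 307. Rat 324 had the lowest Fasn, Srebf1 and Acly of the RYGB-FMRR rats. Over all 29 rats without removing group means, Srebf1 ranked number 3 of 14775 genes by r with Fasn (r = 0.85), a value that includes the differences between groups.

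No relation of Scd passed the threshold by Pearson's r. With Fasn its r was 0.37 (permutation p = 0.0405, adjusted p = 0.0608) and its rho 0.32 (permutation p = 0.0904, adjusted p = 0.109), and r was 0.47 without rats 339 and 307. The value of r was 0.81 in SHAM and 0.76 in RYGB but 0.02 in RYGB-FMRR and -0.45 in SD, where Scd counts were low. Rat 340 was the highest SHAM rat for both genes, and rats 344 and 346 were the highest RYGB rats for both. In RYGB-FMRR, rat 307 had the lowest Scd, at 6.82 CPM, with the second highest Fasn and the highest Srebf1 of its group. Scd with Srebf1 had an r of 0.20 (permutation p = 0.302, adjusted p = 0.302) and a rho of 0.20 (permutation p = 0.316, adjusted p = 0.316). Scd with Acly had an r of 0.38 (permutation p = 0.0258, adjusted p = 0.0517) and a rho of 0.49 (permutation p = 0.00678, adjusted p = 0.0136). Srebf1 with Acly had an r of 0.41 (permutation p = 0.0741, adjusted p = 0.0889) and a rho of 0.45 (permutation p = 0.0249, adjusted p = 0.0373). Without the 2 rats farthest from the median of the first gene, again before group means were subtracted, these r values were 0.15, 0.40 and 0.39. For Scd as the first gene those were rats 344 and 336, and SHAM rat 340 remained.

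**Figure D5:**
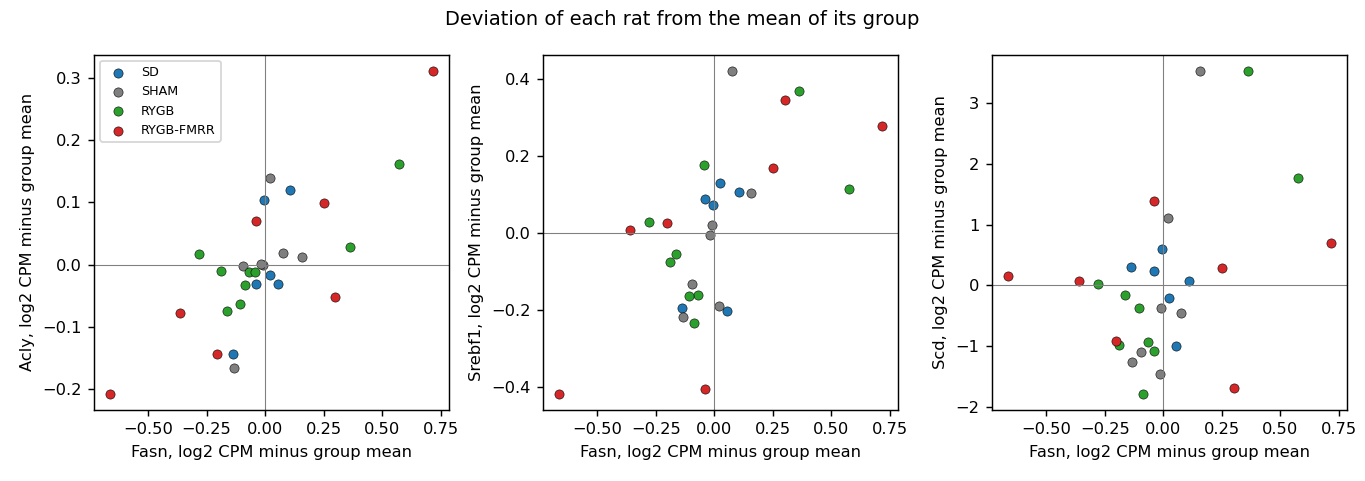
Deviation of Fasn from its group mean (horizontal axis, log2 CPM) against that of Acly, Srebf1 and Scd (vertical axes, log2 CPM), with 1 point per rat coloured by group. The points rise together for Acly (r = 0.76) and Srebf1 (r = 0.63) and are more scattered for Scd (r = 0.37).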

How the data were processed

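Renal cortical RNA was sequenced as stranded, paired-end total RNA libraries. The authors trimmed reads with Trim Galore, aligned them to rn5 with STAR and counted read pairs on Ensembl exons with featureCounts 1.6.4, with the reverse-strand setting. The deposited tables used here hold raw counts of 31 libraries, neither normalized nor filtered, of which 29 with at least 1000000 counts were used. Counts were filtered (filterByExpr, minimum count 10), scaled by TMM and tested with the quasi-likelihood test of edgeR 4.0.16 (R 4.3.3) in 1 model of the 4 groups, with Benjamini-Hochberg adjustment over 14776 genes. Each standard error was taken from the ratio of the log2 fold change to the root of its F statistic. Log2 CPM used a prior count of 2, and RPKM the exonic length in the files. Exact permutation tests and correlations used SciPy 1.17.1. The fit was tested on simulated data. No libraries of a group were identical. By the labels each library came from a separate rat.

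The genes and lists were chosen with earlier results of these data known. Named were the 4 genes in every comparison. A set of 8 lists of other pathway and marker genes, and the naming of genes of similar pattern, needed symbols, and 0 rows of the reference table carry an Ensembl identifier, so these were not analysed here. Alternatives were DESeq2 1.42.0 (Wald test, the study's method), its size factors, no filter, the adjusted p-value alone, all libraries, only the compared groups, each rat left out in turn, and, chosen after seeing the data, exact permutation tests of single genes.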

Additional observations from a re-analysis of the deposited data

Results flagged for a closer look

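Within each group of 6 to 9 rats, the gap of the highest or lowest rat to the next was compared with the range of the group, for 4 genes and 16 groups in all. Chance sets apart about 1 in 20 groups. A single rat stood apart, RYGB rat 346, with the highest Acly of its group at a log2 CPM of 7.42 and the next, rat 344, at 7.29. The change of Fasn from SHAM was larger in RYGB-FMRR than in RYGB by 0.55 on the log2 scale (adjusted p = 0.00785 by edgeR), and that of Srebf1 by 0.66 (adjusted p = 0.000116 by edgeR).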

How the results depend on the processing

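No paired analysis was possible because each rat is in 1 group and no rat number in the labels occurs in more than 1 group. Over 24 values (4 genes in 6 comparisons) and 7 alternatives, 163 of 168 kept their direction and their side of the thresholds. The adjusted p-value alone reused the main fit with a looser rule, so it could add calls but not lose them or change direction. The exact permutation test was judged on its unadjusted p-value. With the adjusted p-value alone, Acly was also called in SHAM compared with SD (-0.24), RYGB-FMRR compared with RYGB (0.19) and RYGB compared with SD (-0.27), so 2 genes of 4 were called in SHAM compared with SD, where 35.2% of all genes were, and 2 in RYGB compared with SD, where 40.6% were. The DESeq2 Wald test also called Scd in SHAM compared with SD (1.97, adjusted p = 0.0485), again 2 genes of 4, against 18.1% of all genes. The exact permutation test passed Scd in RYGB-FMRR compared with RYGB (1.80, unadjusted p = 0.0278). Fasn in SHAM compared with SD had an adjusted p of 0.00864 by edgeR when only these groups were fitted. It lay from 0.187 to 0.265 in the other fits of all groups with no rat left out. With each rat left out in turn it lay from 0.208 to 0.346. The fold change stayed under 1.3 throughout. With only the compared groups fitted, adjusted p by edgeR rose for Fasn and Srebf1 in RYGB-FMRR, and both stayed called. For Fasn it was 0.00167 compared with SHAM, 0.0377 compared with RYGB and 0.00953 compared with SD. For Srebf1 it was 2.61e-05, 0.00093 and 0.000719 in that order. It fell for Scd in RYGB-FMRR compared with SD (1.31e-05).

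With each rat left out in turn, 332 of 348 values kept their direction and their call. The sign changed in 4 values, all close to 0 and never called. Srebf1 in RYGB compared with SD (0.03) ranged from -0.0174 to 0.0602 and was under 0 without SD rat 352 or 356 or RYGB rat 344, and Acly in RYGB compared with SHAM (-0.03) ranged from -0.0526 to 0.00031 and was over 0 without SHAM rat 321. The 12 values whose call changed were all Scd. For RYGB-FMRR compared with SHAM its log2 fold change lay between 1.96 and 3.80. For RYGB compared with SHAM it lay between 0.16 and 2.82, with 1 to 2 genes of 4 called, and for RYGB-FMRR compared with RYGB between 0.67 and 2.11.

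With the 2 low SHAM libraries added, r within groups was 0.37 for Fasn and Srebf1 (permutation adjusted p = 0.115) and 0.31 for Fasn and Acly (permutation adjusted p = 0.204), so neither relation held. In those libraries a gene had from 1 to 25 counts. With DESeq2's size factors, r for Scd and Acly was 0.39 (permutation adjusted p = 0.0462). The cause of these changes was not tested.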

Other observations

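The 2 SHAM libraries with low totals, which entered no comparison, held 13 and 9 counts of Fasn, 7 and 18 of Srebf1, 19 and 25 of Acly, and 1 of Scd each, in rats 343 and 348 in that order. As CPM of the total count, without TMM scaling, Fasn was at 107 (exact Poisson 95% interval 57.0 to 183) and 88.6 (40.5 to 168). Srebf1 was at 57.6 (23.2 to 119) and 177 (105 to 280), and Acly at 156 (94.1 to 244) and 246 (159 to 363). A single count of Scd gave 8.23 (0.208 to 45.9) and 9.85 (0.249 to 54.9), intervals that span the range of the SHAM rats used. The intervals cover counting error only.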
